A study of Danio rerio with 12 samples.

Results

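The Bmal and Clock genes encode the activators of the circadian clock, and 6 of them were followed here in the pineal gland of zebrafish: bmal1a, bmal1b, bmal2, clock1a, clock1b and clock2. Members were chosen by gene name, and every probe set of the array that the platform annotation or the study assigns to one of them was taken. This gave 7 probe sets for the 6 genes, out of 15502 probe sets for 8793 named genes on the array. The annotation lists clock1a as clocka, clock1b as clockb and clock2 as npas2. All genes had 1 probe set except bmal2, which had 2.

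The RNA came from 12 pools of 12 pineal glands each, taken from males and females of the transgenic line Tg(aanat2:EGFP)Y8 at an age of 0.5 to 1.5 years. All fish carried the transgene, in which the aanat2 regulatory regions drive a green fluorescent protein in the pineal gland, so that the gland could be dissected by its fluorescence. They had been raised under a light-dark cycle and were moved to constant darkness for sampling, which began at circadian time (CT) 14 and went on every 4 h for 48 h. Each of CT14, CT18, CT22, CT2, CT6 and CT10 was therefore sampled in 2 daily cycles, with 1 Affymetrix array each, and the 2 arrays of a circadian time differ in fish, in cycle and in hybridization. Circadian times are those of the array labels, and whether they match the time axis of the study's plots was not settled here. From RNA-seq of other fish the study reports peaks at CT10 for bmal1a, bmal1b, clock1a and clock1b. It gives CT10 to CT14 for bmal2 and CT14 for clock2. The fitted array peaks of bmal1a, bmal1b, bmal2 and clock1a given below lie earlier than these, and the reason was not tested.

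CLOCK and BMAL proteins share a basic helix-loop-helix domain, which binds DNA, and PAS domains, through which they pair with each other. The pairs bind E-box elements and activate genes of the Period and Cryptochrome families, whose proteins in turn repress the pairs. In mammals, transcription of Bmal1 is raised by receptors of the ROR family and lowered by those of the REV-ERB family. The zebrafish has several paralogs of both activators, and its pineal gland contains its own clock, which drives the nightly production of melatonin.

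Median deposited intensities were 71.0 to 95.4 over the 12 arrays. The last 4 arrays (CT22, CT2, CT6 and CT10 of the second cycle) had brighter hybridization controls, with a geometric mean of 1076 to 1917, against 666 to 896 on the 8 arrays before them. Of 16 listed markers of pineal photoreceptors and pinealocytes 12 had a probe set. None of these 12 lay in the lowest 25% of intensities on any array, and their summed intensity ranged from 20658 to 40897. The array at CT6 of the second cycle stood apart, and its mean correlation with the other arrays was the lowest, at 0.860. On the log2 scale its 7 skin markers lay 2.72 above their mean over all arrays. Its 4 bone and connective tissue markers lay 2.41 above and its 6 immune markers 1.63 above, and its pineal markers lay 0.78 below. Markers of other tissues also deviated on other arrays. In the first cycle bone and connective tissue markers lay 1.62 above at CT10, and muscle markers 1.62 above at CT14. Skin markers lay 1.26 above at CT14 and 1.34 above at CT18 of the first cycle, and 2.09 below at CT18 of the second. Brain markers lay 1.49 above at CT18 and 1.26 above at CT2 of the second cycle. The fits of the 6 genes are given with and without CT6 of the second cycle, and the part of the other tissues in any result was not tested. In pooled tissue, fewer cells of a type and less RNA per cell cannot be told apart.

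Among the 6 genes, bmal1a had the widest 24-h swing, with its highest intensities at CT6 and its lowest at CT18, and it alone passed the 24-h test. In that test a 24-h cosine was fitted to the log2 intensities of the 12 arrays with limma, the p-values were adjusted over all 11625 probe sets that passed a filter on low values, and a probe set was called at an adjusted p under 0.05. The test called 60 probe sets, or 0.516%. It called 1 of the 6 genes tested. The median fitted fold, peak over trough, was 3.06 for the 6 genes and 1.40 for all probe sets tested. A fitted fold cannot lie below 1 and rises with scatter, so these medians alone do not measure rhythm. The residual SD (log2) was 0.729 for bmal1a, 0.748 for clock1a, 0.915 for bmal2 and 0.467 for clock2. The median of probe sets of like mean was 0.470, 0.423, 0.894 and 0.425, respectively. For bmal1b and clock1b the residual SD was 0.329 and 0.435, against 0.486 and 0.518. The genes bmal1b, bmal2 and clock1a had fitted folds of 3.03, 3.10 and 3.09 without passing the test, and clock1b and clock2 had the lowest fitted folds, 1.21 and 1.47.

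Several markers of other tissues also had high fitted folds, without passing the test. The 4 bone and connective tissue markers had a median fold of 4.15 and the 7 skin markers one of 2.95, with 0 called by limma in either list. The lowest unadjusted p in these 2 lists was that of dcn, a matrix proteoglycan with a fold of 2.14 and a fitted peak at CT7.08 (0.0183, adjusted p 0.397). The collagen genes col1a1a (fold 6.86, peak at CT9.69) and col1a2 (6.16, CT8.78) had fitted peaks in the hours after that of bmal1a. So did sparc (1.68, CT8.78) and the keratin gene krt91 (4.95, CT10.4). The other skin markers peaked between CT6.75 (icn, fold 1.44) and CT10.9 (epcam, 3.98), except agr1 at CT19.6 (1.04). The 5 brain markers, with a median fold of 1.81 and 0 called, peaked between CT17.0 (gad1b, fold 4.44) and CT23.9 (elavl3, 1.35). Among them were snap25a (3.09, CT18.8) and gfap (1.81, CT20.1, unadjusted limma p 0.0109, adjusted p 0.337). At CT18 of the second cycle the brain markers lay 1.49 above their mean over all arrays on the log2 scale. They lay 0.0377 above at CT18 of the first cycle, where bmal1a had its lowest intensity, and 1.26 above at CT2 of the second. Without the array at CT6 of the second cycle the median folds were 2.69 for bone and connective tissue and 1.79 for skin, against 3.43 for the 6 genes and 1.40 for all probe sets tested. The fitted peaks without that array were at CT11.3 for col1a1a, CT10.4 for col1a2, CT10.7 for sparc and CT7.75 for dcn, against CT7.58 for bmal1a. The unadjusted limma p was then 0.0416 for both col1a1a and dcn (adjusted p 0.371 each), with dcn at a fold of 1.62. Among the skin markers the peaks were at CT12.3 for krt91, CT17.3 for icn and CT18.1 for agr1. The other skin markers peaked between CT11.0 (krtt1c19e) and CT13.6 (krt4). The part of these tissues in the swings of the 6 genes was not tested.

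**Figure D1:**
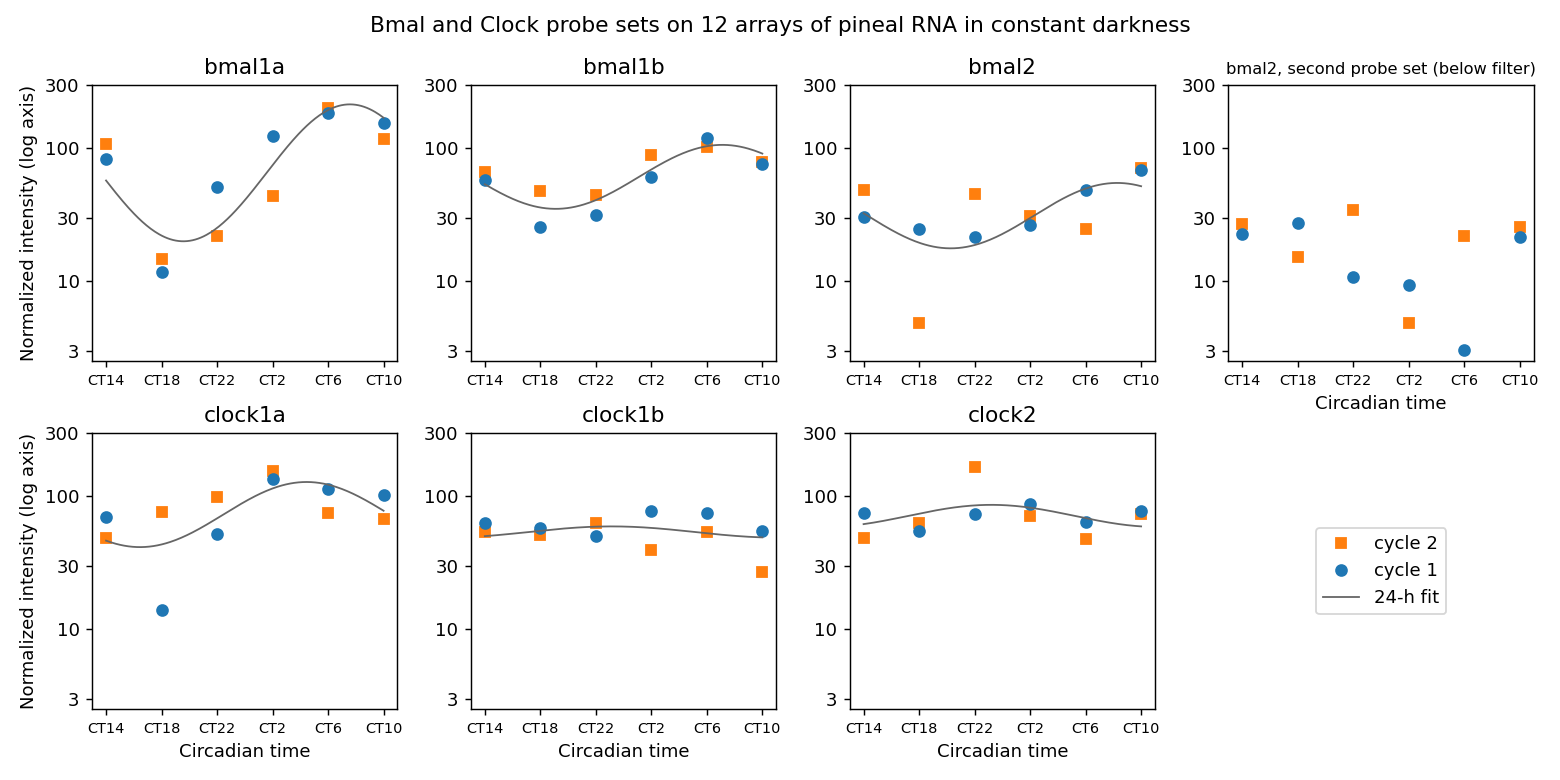
Normalized intensity (log axis) of the 7 probe sets against circadian time, with squares for the second cycle, circles for the first and a line for the fitted 24-h curve; the second bmal2 probe set was below the filter and has no curve. The CT6 arrays of bmal1a lie at 200.1 and 185 and its CT18 arrays at 14.6 and 11.7, while clock1b and clock2 show no comparable difference.

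The bmal1a probe set measures 1 of the 2 Bmal1 paralogs, the partners with which CLOCK proteins bind E-boxes as pairs. From CT14 to CT10 its normalized intensity was 107, 14.6, 22.1, 43.7, 200.1 and 117 in the second cycle. In the first cycle it was 82.7, 11.7, 51.0, 123, 185 and 156. Both CT6 arrays lay above every other array, and both CT18 arrays lay below every other array. By mean intensity the order of the times was CT18 (13.2 ± 2.04), CT22 (36.5 ± 20.4), CT2 (83.3 ± 56.0), CT14 (94.9 ± 17.2), CT10 (136 ± 27.8) and CT6 (193 ± 10.5; SD, n = 2 each). The arrays of CT22 and CT2 overlapped, as did those of CT2 and CT14, whereas the other neighbours in this order did not.

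The fitted curve of bmal1a had a peak 10.7-fold above its trough, and the peak was at CT7.57 (SE 0.592 h). The fitted intensity at CT6 was 8.79 times that at CT18, with a 95% interval of 3.99 to 19.3. These are the times of its highest and lowest arrays, and the interval makes no allowance for a choice of times. The CT18 arrays of bmal1a lay near the low end of the intensities, at percentile 12.2 of the array in the second cycle and 9.82 in the first. With an offset of 32 added before log2 the fold was 4.30 and the CT6 over CT18 ratio 3.75 (2.41 to 5.84), at an adjusted p of 0.0160. Without the offset its adjusted p in the limma fit was 0.0259. Of the variance of its 12 log2 values 78.6% lay at 24 h, a share that the study calls the g-factor. Fitted to each cycle alone, the fold was 12.0 in the second cycle and 10.8 in the first, with peaks at CT8.43 and CT6.67.

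The call of bmal1a rested on several single arrays. With each array left out in turn the fitted fold stayed between 8.21 and 13.8 and the peak between CT7.13 and CT7.93. The adjusted p ranged from 0.0199 to 0.0849 and passed the threshold in 6 of the 12 fits. The call was lost without either CT18 array, where the adjusted p was 0.0802 for the second cycle and 0.0800 for the first. It was also lost without either CT10 array (0.0578 for the second cycle and 0.0849 for the first), without CT6 of the first cycle (0.0741) and without CT22 of the second (0.0709). It was kept without the array at CT6 of the second cycle, the one with the highest skin markers, at a fold of 10.6 and an adjusted p of 0.0321. Without the last 4 arrays the fold was 13.8 and the adjusted p 0.0530.

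**Figure D2:**
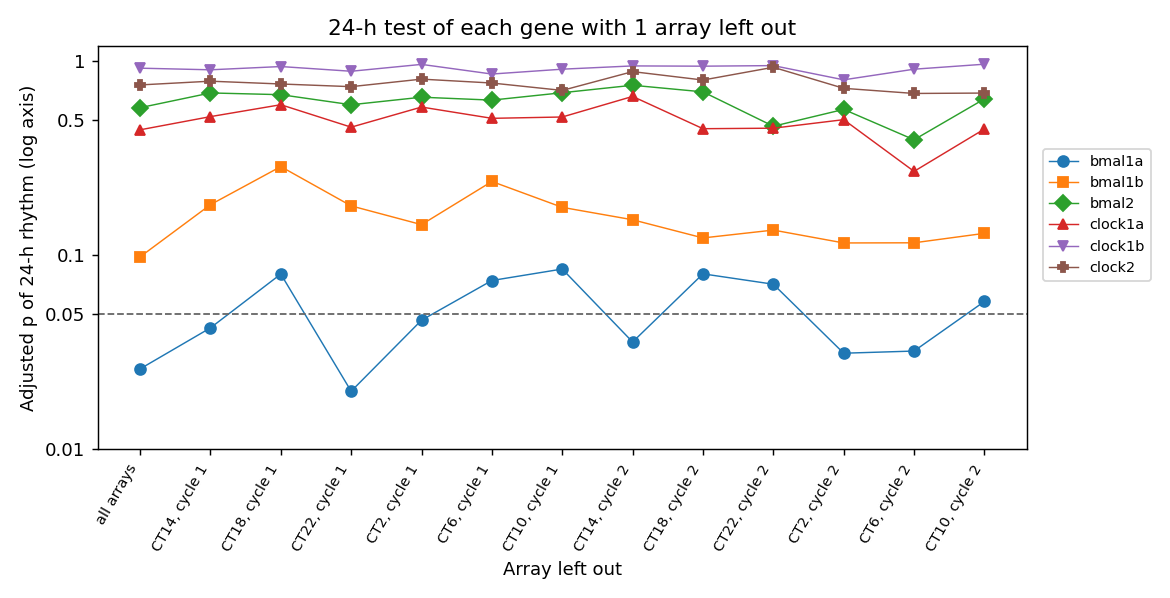
Adjusted p of the 24-h test (log axis) for each gene with all arrays and with each array left out; the dashed line marks 0.05. The points of bmal1a lie on both sides of the line, from 0.0199 to 0.0849, and those of the other 5 genes all lie above it.

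The second Bmal1 paralog, bmal1b, had a smaller swing with its peak at nearly the same time. Its intensities from CT14 to CT10 were 66.0, 48.0, 44.8, 89.2, 102 and 78.8 in the second cycle. The first cycle gave 58.1, 25.8, 31.6, 61.0, 119 and 76.6. The arrays at CT6 were the highest, as for bmal1a. Those at CT18 and CT22 were the lowest 4 of the 12. The order of the mean intensities was CT18 (36.9 ± 15.7), CT22 (38.2 ± 9.31), CT14 (62.0 ± 5.55), CT2 (75.1 ± 20.0), CT10 (77.7 ± 1.52) and CT6 (111 ± 12.1; SD, n = 2 each). The arrays of CT18 and CT22 overlapped, as did those of CT14 and CT2 and those of CT2 and CT10.

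For bmal1b the fitted fold was 3.03, with the peak at CT7.11 (SE 0.761 h), and the fitted CT6 intensity was 2.89 times that at CT18 (95% interval 1.80 to 4.64). The share of its variance at 24 h was 79.8%. Of the 11625 probe sets, 59 had a share at least as high, against 78 for bmal1a. The adjusted p of bmal1b was 0.0981 in the limma fit, from an unadjusted p of 0.000768, and 0.0892 without the variance trend of that fit. No alternative and no left-out array brought bmal1b past the threshold. Without the array at CT6 of the second cycle its fold was 3.06 and its adjusted p 0.116. Its fitted fold was 2.24 in the second cycle and 4.12 in the first.

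The third Bmal gene, bmal2, is the paralog known in mammals as an alternative partner of CLOCK. Its first probe set read 48.3, 4.90, 45.8, 30.8, 24.9 and 71.6 from CT14 to CT10 in the second cycle. The first cycle read 30.6, 24.6, 21.5, 26.3, 48.8 and 68.3. Both arrays at CT10 (69.9 ± 2.37, SD, n = 2) lay above all others, and both at CT18 (14.8 ± 14.0) lay below those of CT2, the next in order of the mean. The arrays of CT2, CT22, CT6 and CT14 overlapped from each time to the next. The fitted fold was 3.10 with the peak at CT8.27 (SE 1.65 h), and the adjusted p was 0.576. The array at CT18 of the second cycle, at 4.90, lay far below the rest, and without it the fold was 2.03. The fold was 1.66 with an offset of 32 and 5.61 without the last 4 arrays. With circadian time as a factor the highest over the lowest time mean was 6.37, a measure unlike the fold of a cosine. The CT6 over CT18 ratio was 2.55 (95% interval 0.890 to 7.32) with all arrays. Without the array at CT6 of the second cycle it was 3.48 (1.14 to 10.7), at a fold of 4.06 and an adjusted p of 0.394.

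The second bmal2 probe set did not pass the filter, because its highest intensity, 34.7, was below the limit of 63.9. It read 26.9, 15.3, 34.7, 4.84, 22.0 and 25.7 from CT14 to CT10 in the second cycle, and 22.6, 27.7, 10.9, 9.31, 3.04 and 21.5 in the first. When all probe sets were tested without a filter its fitted peak was at CT15.3, with a fold of 3.70 and an adjusted p of 0.575. The 2 probe sets of bmal2 thus had different fitted peaks, neither past the threshold, and no test of their difference was made.

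The Clock genes encode the partners of the BMAL proteins. The clock1a probe set was the only one of the 3 with a fitted fold above 2. From CT14 to CT10 it read 48.7, 75.9, 99.8, 155, 74.6 and 67.4 in the second cycle. In the first cycle the intensities were 69.8, 14.1, 52.6, 135, 113 and 102. Both CT2 arrays (145 ± 14.4, SD, n = 2) lay above all others, and the means at the other times lay between 45.0 ± 43.7 at CT18 and 93.9 ± 27.2 at CT6, with overlapping arrays between neighbours.

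The fitted fold of clock1a was 3.09, and its peak at CT4.45 (SE 1.26 h) was the earliest among the 4 genes with a fitted fold above 2. The fitted CT6 intensity was 2.82 times that at CT18 (95% interval 1.27 to 6.27), and the limma adjusted p was 0.443, from an unadjusted p of 0.0296. The array at CT18 of the first cycle, at 14.1 against 75.9 in the second, was by far the lowest, and without it the fold was 2.00 and the CT6 over CT18 ratio 1.70 (95% interval 0.955 to 3.03). With an offset of 32 the fold was 2.04. Without CT6 of the second cycle it was 3.81, at an adjusted p of 0.271. Fitted separately, the second cycle peaked at CT1.02 (fold 2.53) and the first cycle at CT6.01 (fold 6.22).

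The clock1b probe set had the lowest fitted fold of the 6 genes, while its arrays spanned 27.1 to 77.5. Its intensities were 53.8, 51.4, 63.5, 39.8, 53.9 and 27.1 from CT14 to CT10 in the second cycle, and 63.6, 58.3, 50.3, 77.5, 75.1 and 55.2 in the first. The lowest value was that at CT10 of the second cycle, and the means of the 6 times lay between 41.1 ± 19.9 at CT10 and 64.5 ± 15.0 at CT6 (SD, n = 2 each). The fitted fold was 1.21, with an adjusted p of 0.922 and a CT6 over CT18 ratio of 0.958 (95% interval 0.543 to 1.69). Its fitted peak, CT23.1, had an SE of 5.18 h and moved to CT7.57 without the array at CT10 of the second cycle. A CT6 over CT18 ratio takes in little of a curve that peaks near CT23.1. Without CT6 of the second cycle the fold was 1.22 and the adjusted p 0.910. Each cycle fitted alone gave a larger fold, 1.61 with a peak at CT20.8 in the second and 1.31 with a peak at CT5.14 in the first.

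The clock2 probe set measures npas2, a paralog of Clock that in mammals can take its place beside BMAL1. It read 49.0, 63.1, 167, 71.4, 48.0 and 73.3 from CT14 to CT10 in the second cycle, and 74.7, 55.4, 73.7, 87.4, 64.6 and 78.2 in the first. A single array, CT22 of the second cycle, lay far above the next highest, CT2 of the first, and the other 10 arrays spanned 48.0 to 78.2. The fitted fold was 1.47 with this array and 1.15 without it, the adjusted p with it was 0.755, and the fitted CT6 over CT18 ratio was 0.925 (95% interval 0.529 to 1.62). With all arrays the fitted peak was at CT23.2 (SE 2.60 h), and a CT6 over CT18 ratio takes in little of a curve that peaks there. Without CT6 of the second cycle the fold was again 1.47, at an adjusted p of 0.683.

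**Figure D3:**
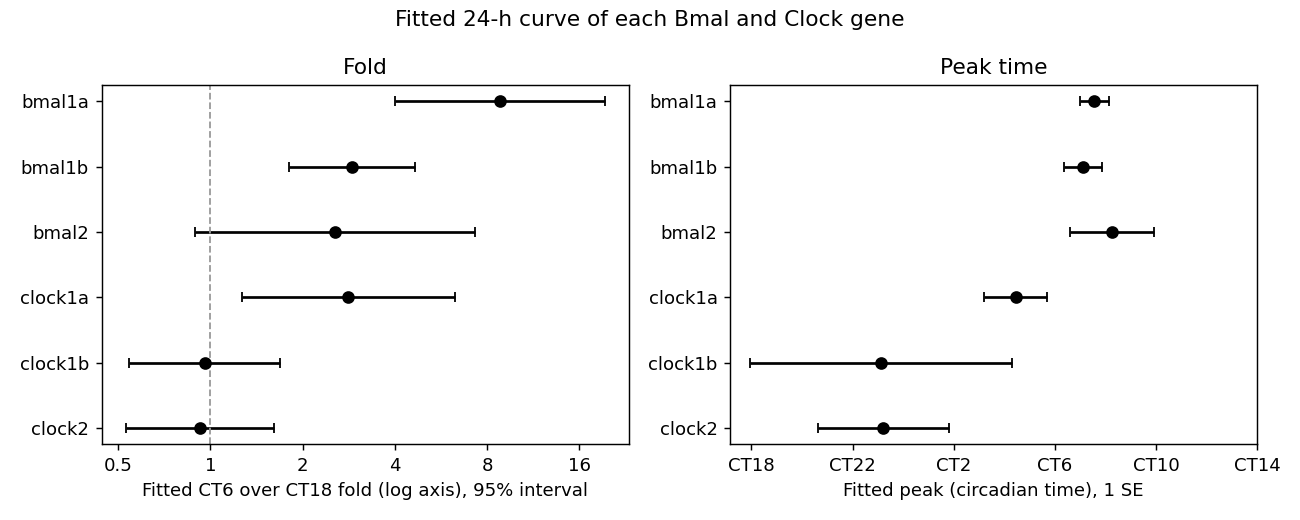
Left, fitted CT6 over CT18 fold (log axis) of each gene with its 95% interval. This ratio takes in little of a curve that peaks near CT23, as fitted for clock1b and clock2. Right, fitted peak in circadian time with 1 SE. The intervals of bmal1a, bmal1b and clock1a lie above 1, whereas those of bmal2, clock1b and clock2 include it. Without CT18 of the first cycle that of clock1a also includes 1 (0.955 to 3.03), and without CT6 of the second cycle that of bmal2 does not (1.14 to 10.7).

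Pairs of the 6 genes were compared within each array, as the difference of their log2 intensities, and the 24-h share of that difference was tested by shuffling the order of the 12 arrays (one-sided permutation test, 100000 shuffles, adjusted over the 15 pairs). The rhythm differed in 4 pairs, each a Bmal1 paralog against clock1b or clock2. The fitted CT6 over CT18 fold of bmal1a was 9.18 times that of clock1b (95% interval 3.82 to 22.0; permutation adjusted p = 0.00450) and 9.50 times that of clock2 (3.12 to 29.0; permutation adjusted p = 0.0168). For bmal1b the ratio was 3.02 to clock1b (1.52 to 5.98; permutation adjusted p = 0.0476) and 3.13 to clock2 (1.50 to 6.52; permutation adjusted p = 0.0446). CT6 and CT18 are the times of the highest and lowest bmal1a arrays, and the intervals of pairs make no allowance for a choice of times. This ratio also takes in little of the fitted curves of clock1b and clock2. The whole fitted curve of the difference had a fold of 12.1 for bmal1a against clock1b and 13.6 against clock2. For bmal1b these folds were 3.37 and 3.79.

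Of these 4 differences, that of bmal1a against clock1b passed the threshold with every array left out in turn, with adjusted p of 0.00255 to 0.0253. The difference of bmal1a against clock2 was lost without either CT6 array, at 0.0691 for the second cycle and 0.0581 for the first. Those of bmal1b were lost in 10 of the 12 fits against clock1b and in 8 of the 12 against clock2, with adjusted p of up to 0.0949.

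The Bmal1 paralogs were not shown to differ from each other by the permutation test (adjusted p = 0.142). The fitted CT6 over CT18 fold of bmal1a was 3.04 times that of bmal1b (95% interval 1.06 to 8.72). This interval is not adjusted and covers the CT6 over CT18 ratio only, whereas the permutation test covers the 24-h share of the difference. The fitted peaks of bmal1a and bmal1b were 0.459 h apart. Against clock1a the ratio of bmal1a was 3.12 (0.913 to 10.7; permutation adjusted p = 0.0689) and the peak of bmal1a was 3.12 h later. The ratio of bmal1b to clock1a was 1.03 (0.485 to 2.17; permutation adjusted p = 0.175). Between clock1b and clock2 it was 1.04 (0.467 to 2.30; permutation adjusted p = 0.876). With all arrays no pair that included bmal2 passed the threshold, nor did any pair within the Clock genes or within the Bmal genes. The interval of bmal2 against clock2 was 1.03 to 7.39 (permutation adjusted p = 0.0526). This pair passed with an offset of 32 (0.0333) and without CT18 of the second cycle (0.0225). Without that array bmal2 against clock1a (0.0472) and clock1a against clock2 (0.0216) passed as well.

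The arrays also allowed the later cycle in constant darkness to be compared with the earlier one. For the 6 genes the second cycle minus the first, on the log2 scale and beside the 24-h curve, lay between -0.43 (clock1b, 95% interval -0.97 to 0.12) and 0.32 (bmal1b, -0.14 to 0.79). The value for bmal1a was -0.39 (-1.20 to 0.42), or 0.17 (-1.13 to 1.47) with the last 4 arrays as a block. Without that block the limma adjusted p of the 6 genes were 0.741 to 0.996. Across all 11625 probe sets limma called 0 (0%) higher and 0 lower in the second cycle, while 829 had an unadjusted p under 0.05.

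The size of the swing in the second cycle was compared with that in the first by an exact two-sided permutation test in which the arrays of each time were exchanged between the cycles in all 64 ways (smallest possible p 0.031). On the log2 scale the fold of bmal1a was 0.15 larger in the second cycle, that of clock2 0.84, that of clock1b 0.29 and that of bmal2 0.16 larger. The fold of bmal1b was 0.88 smaller (-0.88) and that of clock1a 1.30 smaller (-1.30). The lowest unadjusted p of the exact test was 0.188, for bmal1b, and all 6 adjusted p were 0.938. Because no p can lie below 0.031, a single gene on its own could not pass the threshold after adjustment over the 6 genes. The test therefore cannot decide whether the swing of a given gene changed between the cycles.

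The profiles were also set beside those of the other 8285 probe sets above the filter that had 1 gene symbol, by Pearson's r over the 12 arrays. These values are descriptions, since all points share the same 12 RNA pools. Most like bmal1a were efhd2, which encodes a calcium-binding protein (r = 0.891), abi3a (0.886) and ptp4a3b, a protein phosphatase (0.882). Most opposite were slc38a4, an amino acid transporter (-0.928), bhlhe41, a repressor that binds E-boxes (-0.927), and stc2a, a stanniocalcin (-0.909). The fitted peaks of these 3 lay between CT19.2 and CT20.0.

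Most like bmal1b was nfil3-5, a bZIP repressor that binds D-box elements (r = 0.931), followed by fbxl3a, whose mammalian counterpart marks cryptochromes for degradation (0.868), and rasal3 (0.865). Both nfil3-5 and fbxl3a passed the 24-h test, nfil3-5 with a peak at CT7.56 (fold 33.9) and fbxl3a with a peak at CT8.81 (fold 2.31). Closest to bmal2 were nrip1b (0.872), txnl4b (0.823) and suclg1 (0.823). Closest to clock1a were shbg (0.923), alpl (0.912) and oprd1a (0.897). For clock1b they were clns1a (0.920), npm1b (0.910) and hibadhb (0.907), and for clock2 they were s1pr2 (0.903), lamp1a (0.878) and vldlr (0.877). None of these last 12 genes passed the 24-h test. Without the array at CT6 of the second cycle, r was 0.822 to 0.950 for the 18 genes named as most like a member and -0.930 to -0.904 for the 3 most opposite ones.

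Within the family the profiles of bmal1a and bmal1b were the most alike (r = 0.769 over 12 arrays), followed by bmal1b with clock1a (0.677) and bmal1a with bmal2 (0.563). The lowest value was that of bmal1a with clock2 (-0.229). Without the array at CT6 of the second cycle these were 0.736, 0.720, 0.644 and -0.107, and the lowest was that of bmal2 with clock1b (-0.141).

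The genes around the activators were taken from lists by function, chosen with earlier results of these data known, so the counts called are descriptions. Over all 11625 probe sets tested the share called was 0.516%. Of 19 listed targets of E-boxes 14 had a probe set, 12 passed the filter and 6 were called, with a median fold of 4.28. Of these 6, ciarta (fold 27.9), bhlhe41 (15.4), nr1d2b (6.80) and dbpa (9.38) had fitted peaks between CT19.2 and CT20.6, roughly opposite to bmal1a. The bHLH repressor bhlhe40 (21.3) followed at CT23.0, and cry2a, a cryptochrome that represses the activators, peaked at CT8.75 (5.59). All but dbpa encode repressors, whereas dbpa encodes an activator at D-boxes. Not past the test were cry3 (fold 2.29, adjusted p 0.226), per2 (2.01, 0.258) and cry1b (2.97, 0.295).

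Of 10 listed ROR and REV-ERB receptors, which act on Bmal1 in mammals, 4 had a probe set and were tested, and 2 were called. The ROR gene rorcb peaked at CT6.00 (SE 0.590 h, fold 14.0), and the REV-ERB gene nr1d2b at CT20.6 (fold 6.80). The folds of rorab and nr1d2a were 1.99 (adjusted p 0.366) and 1.32 (0.890). The lists overlap, since nr1d2b and dbpa each stand in 2 of them.

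Of 11 listed factors of D-boxes 5 were tested and 3 called, among them nfil3-6, whose peak lay at CT23.5 (fold 4.14). The folds of tefa and tefb were 2.20 (adjusted p 0.290) and 1.36 (0.951). Without CT6 of the second cycle tefa was called too (fold 2.73, adjusted p 0.0225). Of 31 listed cofactors and modifiers of CLOCK and BMAL 14 were tested and 2 called, fbxl3a and the casein kinase gene csnk1db, whose peak lay at CT21.7 (fold 2.00). The next were csnk1da (1.48, adjusted p 0.527), gsk3ab (1.44, 0.545) and csnk2a1 (1.49, 0.670). The median fold of the 14 was 1.38, close to the 1.40 of all probe sets tested.

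Of 19 other genes of the bHLH-PAS family, which share the domains of CLOCK and BMAL, 9 were tested with limma and 0 were called, and 0 had an unadjusted p under 0.05. Over all 11625 probe sets 60 (0.516%) were called by limma and 1177 had an unadjusted p under 0.05. Counts of 0 among 9 genes therefore do not set this family apart. The median fold of the 9 was 1.57. The lowest adjusted p were those of hif1al (fold 1.57, 0.518), hif1ab (1.35, 0.563) and sim1a (1.59, 0.633). Without CT6 of the second cycle 8 were tested and 0 called, and hif1ab had an unadjusted limma p of 0.0306 (adjusted p 0.336).

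**Figure D4:**
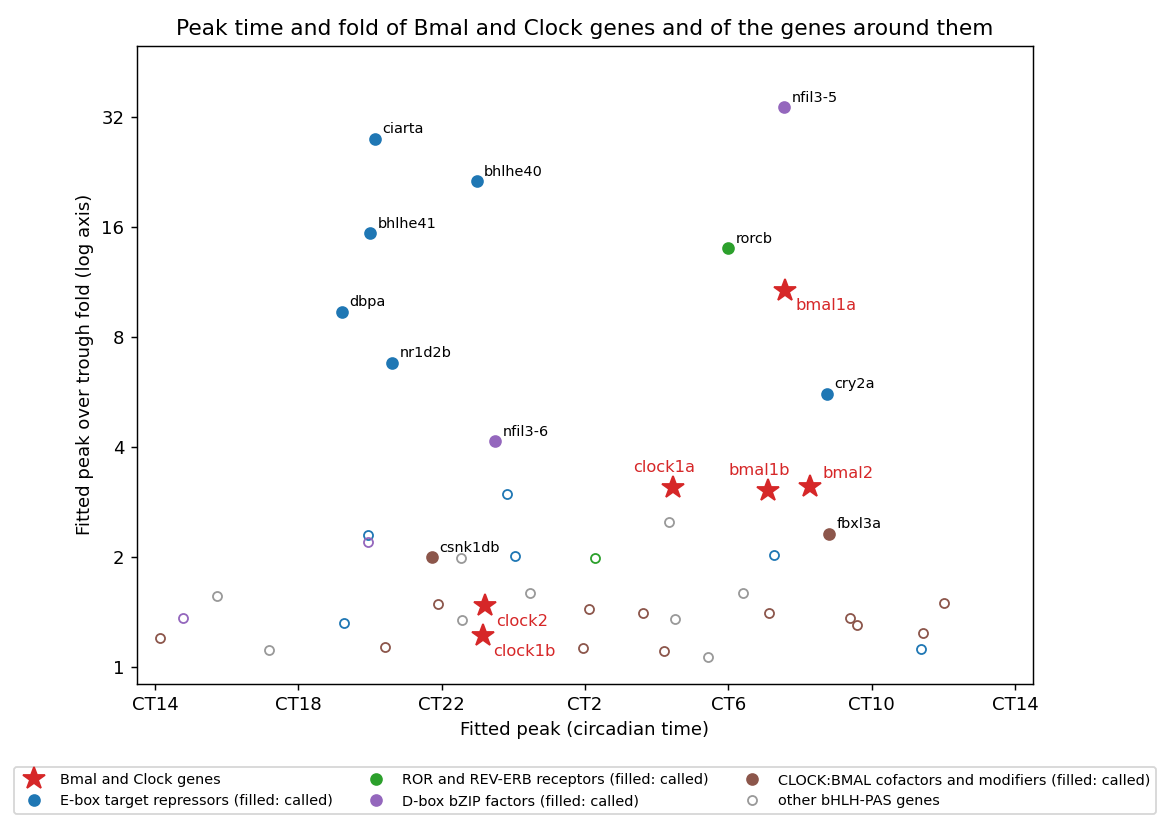
Fitted fold, peak over trough (log axis), against fitted peak time for the 6 Bmal and Clock genes (stars) and the genes of the 5 lists (circles, filled where called; a gene in 2 lists is drawn once). The star of bmal1a lies near rorcb and nfil3-5 between CT6.00 and CT7.57, and the called E-box targets other than cry2a lie between CT19.2 and CT23.0.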

How the data were processed

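RNA from 12 pools of pineal glands was amplified by 2 rounds of in vitro transcription from an oligo(dT) primer, per the labels, which favours 3' ends. The authors deposited signal intensity on a linear scale, scaled per array with GCOS; the submitters' processing notes also name MAS5, and versions are not given in the sources used here. The table holds no detection calls, so the background of a probe set is not known, and the number of arrays limits the precision. The 115 control probe sets were left out. Quantile normalization of the log2 values was done in R 4.3.3 (limma 3.58.1). A filter then left out each probe set whose maximum over the arrays fell within the lowest 25%, so that 11625 of 15502 stayed. Normalized intensities are given on the linear scale, and no level is compared between probe sets.

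A 24-h cosine and sine were fitted with limma (variance trend, 9 residual degrees of freedom), and p-values were adjusted by Benjamini-Hochberg. The g-factor is the share of variance at 24 h. Folds of a fitted curve are its maximum divided by its minimum. With circadian time as a factor, the fold is the highest over the lowest time mean of the log2 values. The peak is then the sampled time of the highest mean. Nothing in the labels pairs arrays beyond the daily cycle. The permutation tests used numpy 2.4.6 in Python 3.11.15, and intervals of ratios between genes come from an ordinary fit to the difference with 9 degrees of freedom. The fits and the shuffles were tested on simulated data.

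The members and the gene lists were chosen with earlier results of these data known. Beside the 7 probe sets of the members, the genes named are the 3 of highest r for each gene, the 3 of lowest r for bmal1a, and of each list the genes called and up to 3 more of lowest p. A gene with several probe sets is given by that of the highest mean. The probe sets of cry2a and dbpa are named by the study's list only. Of the probe sets 10795 had 1 gene symbol, 135 several and 4572 none. Alternatives were values without further normalization, median centring, an offset of 32, no filter or a filter at 50%, the linear scale, a fit without the variance trend, circadian time as a factor, the cycle or the time as a block, and each array left out. Chosen after seeing the data were the fits without the last 4 arrays or with these as a block, and those of the list genes, markers and r without CT6 of the second cycle.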

Additional observations from a re-analysis of the deposited data

How the results depend on the processing

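With 1 array left out, the number of probe sets called in the 24-h test was 14 (without CT10 of the first cycle) to 103 (without CT6 of the second cycle), against 60 with all arrays. It was 29 with median centring, 17 without the variance trend, 12 with circadian time as a factor and 133 without the last 4 arrays. With the daily cycle as a replicate block 53 were called, and the block changed the call of none of the 6 genes. Across probe sets, the deviations of one cycle from the other had r of -0.300 to 0.225 over 15 pairs of times, and 5 pairs lay above 0.1, so the numbers do not pair the arrays throughout.

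The fold of bmal1a was 10.7 without the variance trend (adjusted p 0.0831) and 13.8 without the last 4 arrays (0.0530). With circadian time as a factor its highest over its lowest time mean was 14.7 (0.114). None of these passed the threshold. The fitted fold was 8.21 to 13.8 with 1 array left out. An offset of 32 before log2 gave 4.30 (0.0160). The other 5 genes passed the threshold under no alternative. The peak of clock1b moved by more than 6 h with circadian time as a factor (fold 1.65) and without CT10 of the second cycle, where the fold was 1.10, the lowest of 1.10 to 1.40 over the left-out arrays. The filter at 50% removed bmal1b, bmal2 and clock1b.

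Between the cycles 0 probe sets were called, also with circadian time as a replicate block, and 0 to 4 with 1 array left out, the 4 without CT22 of the second cycle. The second minus the first cycle (log2) turned its sign for bmal1a with the last 4 arrays as a block (0.17), for clock2 without further normalization (0.0932) and over the left-out arrays for bmal2 (-0.56 to 0.26), clock1a (-0.0605 to 0.53) and clock2 (-0.26 to 0.12). Pairs of genes that differed numbered 1 to 7 with 1 array left out, against 4 with all. They numbered 1 without either CT6 array and 7 without CT18 of the second cycle, and an offset of 32 gave 5. The fold of the difference between clock1b and clock2 was 1.11 to 1.72, and its peak moved by more than 6 h without CT22 of the second cycle (1.11). The causes were not tested. Leaving out arrays was not run for the comparison of swing between cycles. With 1 array per time and cycle, the spread of replicate pools within a cycle is not known.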
